A study of Mus musculus with 6 samples.

Results

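The genes described here are the 10 that encode cyclins E1, E2, A2, B1 and B2 (Ccne1, Ccne2, Ccna2, Ccnb1, Ccnb2), the cyclin-dependent kinases CDK1 and CDK2 (Cdk1, Cdk2) and the phosphatases CDC25A, CDC25B and CDC25C (Cdc25a, Cdc25b, Cdc25c). They were picked by symbol from the 54532 genes of the expression table, and each of the 10 symbols had 1 row. All 10 passed the limit of a mean of 0.5 FPKM that left 12681 genes to test, where FPKM is the reads of a gene scaled to its length and to the size of the library. All samples came from 1 line of mouse osteoblast precursors, MC3T3-E1, and were kept in osteogenic medium with β-glycerophosphate, ascorbic acid and dexamethasone for 3 days. The 3 control samples received this medium alone and the other 3 also received 0.2 mM metformin, an antidiabetic biguanide. The labels number the samples of each group 1 to 3 but do not say how the cultures were separated, so p-values measure the spread between these samples.

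A cyclin-dependent kinase is inactive until a cyclin binds it, and the cyclins are made and destroyed in turn through the cell cycle. Cyclin E with CDK2 drives entry into DNA synthesis, cyclin A acts with CDK2 during DNA synthesis and with CDK1 later, and cyclin B with CDK1 drives entry into mitosis. The kinases WEE1 and PKMYT1 hold these complexes inactive by phosphorylation, and the CDC25 phosphatases remove that phosphate. In the osteoblast lineage these genes are expressed by dividing precursors, and their levels usually fall as cells leave the cycle and mature.

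The recovered reads were 18399861 to 22111790 per sample. Control replicate 1 stood apart, with Pearson correlations of log2 values across genes of 0.952 and 0.960 with the other controls, which had 0.988 with each other. The metformin samples correlated at 0.992. All 7 osteoblast markers examined, among them Runx2, Sp7 and Col1a1, had a mean of at least 0.5 FPKM, and their sum was 9048 to 10750 FPKM in the controls and 5415 to 5660 with metformin, with Spp1 as the largest part. The markers differed in direction. Spp1, Ibsp and Runx2 were lower in every metformin sample than in any control, as 20.5% of all tested genes were. Sp7 and Col1a1 were higher in every metformin sample than in any control, as 23.6% were. Runx2 had 28.6 to 34.1 FPKM in the controls and 25.8 to 27.4 with metformin. Sp7 had 36.8 to 47.1 FPKM in the controls and 52.1 to 54.0 with metformin, and Col1a1 had 927 to 1585 and 2366 to 2576. Alpl and Bglap overlapped between the groups. Of other cell types, 0 of 3 endothelial, 1 of 4 macrophage, 1 of 3 skeletal muscle, 1 of 4 adipocyte and 2 of 3 chondrocyte markers reached that mean. The macrophage sum was 1.97 to 2.18 FPKM in the controls and 1.12 to 1.35 with metformin, nearly all Cd68, with Ptprc at 0 in 5 samples. The muscle sum was 1.196 to 1.87 and 2.07 to 2.38, all Des, with Myod1 and Myog at 0. The adipocyte, chondrocyte and endothelial sums overlapped between the groups. The part of these levels in the results below was not tested.

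With metformin, 9 of the 10 genes were higher at an adjusted p-value under 0.05 (limma-trend, Benjamini-Hochberg adjustment over all tested genes), and none was lower. Over all tested genes 13.2% were called higher and 9.28% lower, that is 1670 and 1177 genes, and with a correction for GC content the split was 2062 higher and 2433 lower. In each of the 10 genes every metformin sample lay above every control, which was so for 23.6% of all tested genes, while 20.5% had every metformin sample below every control. The median log2 fold change of the 10 genes was 1.72, against 0.0053 over all tested genes. Fold changes are of log2(FPKM + 1), so they understate the change of low genes. The ratio of the mean FPKM, metformin over control, is therefore given as well for each of the 10 genes. This ratio was 4.40 to 7.10 for Ccna2, Ccnb1, Ccnb2, Cdk1 and Cdc25c and 2.18 to 3.49 for Ccne1, Ccne2, Cdk2 and Cdc25b. It was 1.30 for Cdc25a, which did not pass the test. The samples are bulk RNA, so more cycling cells and more of these transcripts per cell cannot be told apart.

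**Figure D1:**
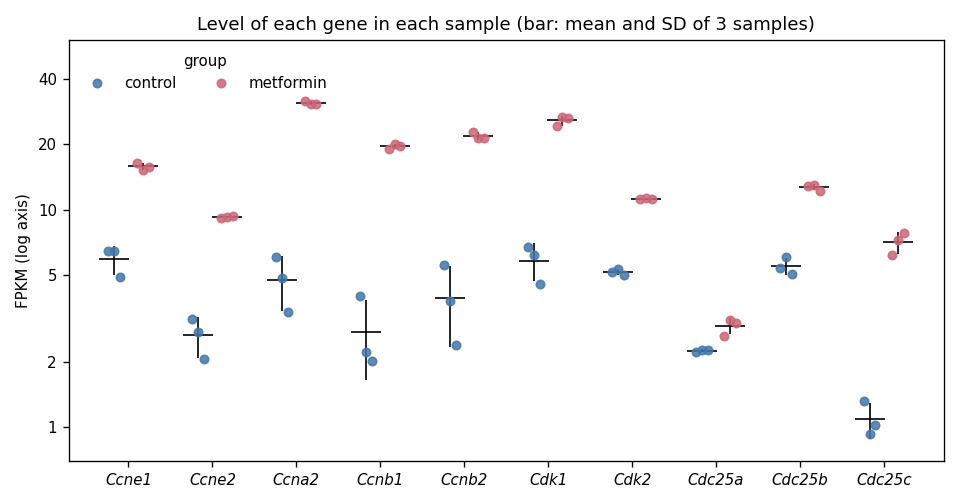
FPKM on a log axis of the 10 genes in the 3 control samples (blue) and the 3 metformin samples (red), with bars for the mean and SD. The groups do not overlap for any gene. They are closest for Cdc25a, where the highest control was 2.28 and the lowest metformin sample 2.64.

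To show what the promoters of the 10 genes share, the RefSeq windows from 250 bases before to 50 after the transcript start (GRCm38.p6) were searched on both strands. A window was found for 7 of the 10 genes, namely Ccne1, Ccnb1, Ccnb2, Cdk1, Cdk2 and Cdc25b, which rose, and Cdc25a, which did not pass the test. The motifs were CCAAT, the box bound by NF-Y, TTTGAA or TTCGAA, forms of the cell cycle homology region, and TTGGCGC or TTCGCGC or TTCCCGC or TTGCCGC, forms of the E2F site. CCAAT was in 6 of the 7 windows and in 37.4% of all 32851 windows. A form of the cell cycle homology region was in 3 of the 7, those of Ccnb2, Cdk1 and Cdc25b, and in 19.2% of all windows. The forms of Ccnb2 began at bases -167 and 5 from the start and that of Cdc25b at base 8. The stretches printed below therefore do not hold every match. An E2F form was in 4 of the 7, those of Ccnb1, Cdk1, Cdk2 and Cdc25a, and in 9.57% of all. A match is a description of letters, not a binding site. The stretches below are 160 bases upstream of every annotated exon, 5′ to 3′ on the strand of the gene, with matches in capitals (CCAAT on the opposite strand reads ATTGG). Ccnb1, Ccnb2 and Cdk1 are shown because their ratios were 4.40 to 7.10, and Cdc25a because it was the gene that did not pass the test.
Ccnb1, chr13:100786571-100786730, minus strand: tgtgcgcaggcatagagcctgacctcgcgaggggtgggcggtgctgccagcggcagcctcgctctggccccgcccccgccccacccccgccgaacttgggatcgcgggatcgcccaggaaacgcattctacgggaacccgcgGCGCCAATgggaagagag
Ccnb2, chr9:70421555-70421714, minus strand: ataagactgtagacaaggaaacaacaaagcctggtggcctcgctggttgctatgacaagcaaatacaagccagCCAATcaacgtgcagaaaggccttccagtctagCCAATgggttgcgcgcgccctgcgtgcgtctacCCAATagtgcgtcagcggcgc
Cdk1, chr10:69352939-69353098, minus strand: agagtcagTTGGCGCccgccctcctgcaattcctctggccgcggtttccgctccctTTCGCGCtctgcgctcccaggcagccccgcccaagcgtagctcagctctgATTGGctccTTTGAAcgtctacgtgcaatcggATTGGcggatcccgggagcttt
Cdc25a, chr9:109875419-109875578, plus strand: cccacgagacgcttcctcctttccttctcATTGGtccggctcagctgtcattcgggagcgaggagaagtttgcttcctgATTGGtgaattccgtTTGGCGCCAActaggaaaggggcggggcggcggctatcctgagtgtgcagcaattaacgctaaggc
In Ccnb2 the 3 CCAAT boxes began 87, 54 and 21 bases before the start. In Cdk1 the capitals from left to right are an E2F form, a second E2F form, CCAAT on the opposite strand, TTTGAA and another opposite CCAAT. Outside the stretches lie a further opposite CCAAT of Cdk1 at base -208, its other TTTGAA at -15 and a CCAAT of Ccnb1 at -67. In Ccnb1 an E2F form on the opposite strand overlaps a CCAAT box, so the capitals run together. In Cdc25a an opposite CCAAT occurs at 2 places, and the run after them reads as an E2F form on both strands. The window of Ccne1 held none of the forms searched, and no window was searched for Ccna2, Ccne2 and Cdc25c. Whether any match bears on the change of its gene was not tested.

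**Figure D2:**
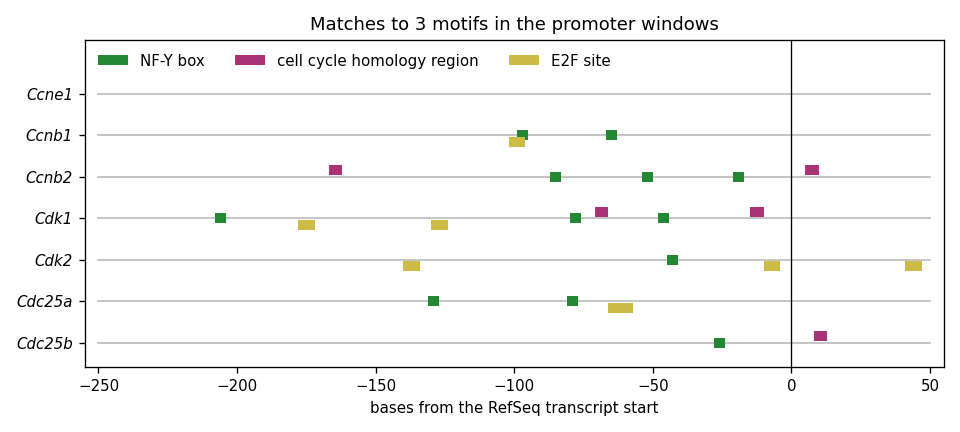
Positions of matches to CCAAT (NF-Y box), the cell cycle homology region and the E2F site in the 7 promoter windows, in bases from the RefSeq transcript start. The Ccne1 line is empty, and the Ccnb2 and Cdk1 lines each carry 3 CCAAT matches before the start.

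The E cyclins rose together. Ccne1 (chromosome 7, 38097984 to 38107534 in the deposited table, whose coordinates are those of GRCm38) had 6.44, 6.45 and 4.89 FPKM in control replicates 1 to 3 and 16.5, 15.2 and 15.7 FPKM in the metformin samples. Its mean went from 5.93 ± 0.90 to 15.8 ± 0.62 (SD, n = 3), with a log2 fold change of 1.29 ± 0.11 (SE, limma-trend adjusted p = 0.000512) and a ratio of 2.66. The related Ccne2 (chromosome 4, 11191351 to 11204779) had 3.15, 2.73 and 2.05 FPKM in the controls and 9.17, 9.23 and 9.31 with metformin. Its log2 fold change was 1.50 ± 0.12 (SE, limma-trend adjusted p = 0.000375) and its ratio 3.49. The metformin samples of Ccne2 lay close together, while the controls were spread more widely. The strand used in counting is not known, so reads of overlapping genes on opposite strands may be mixed. Ccne2 shares 474 identical bases of transcript with Ints8 on the opposite strand, whose FPKM was 5.89 to 7.67 in the controls and 6.52 to 6.9955 with metformin.

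All 3 genes of cyclins A and B rose. Ccna2 (chromosome 3, 36564865 to 36572150), the cyclin of DNA synthesis and early mitosis, had 6.05, 4.87 and 3.38 FPKM in the controls and 31.5, 30.6 and 30.4 with metformin. Its mean went from 4.77 ± 1.34 to 30.9 ± 0.58 (SD, n = 3), with a log2 fold change of 2.49 ± 0.17 (SE, limma-trend adjusted p = 0.000206) and a ratio of 6.48. With metformin it had the highest FPKM of the 10 genes. Ccna2 shares 431 identical bases with Exosc9 on the opposite strand, which had 4.47 to 5.80 FPKM in the controls and 5.35 to 5.88 with metformin. Ccnb1 (chromosome 13, 100778650 to 100786570), the main mitotic cyclin, had 4.03, 2.22 and 2.01 FPKM in the controls and 19.0, 20.1 and 19.6 with metformin. Control replicate 1 was thus the highest control, and the metformin samples were still far above it. The mean went from 2.75 ± 1.11 to 19.5 ± 0.54 (SD, n = 3), with a log2 fold change of 2.49 ± 0.19 (SE, limma-trend adjusted p = 0.000305) and a ratio of 7.10. Reads of Ccnb1 could be shared with near-identical copies. Ccnb1-ps is 99.2% identical over 1287 bases and had a mean of 0.391 FPKM. Gm12856 (98.1% over 1294 bases) had 0.185 and Gm8416 (97.3% over 1290 bases) 0.121 FPKM. Gm7483 (96.6% over 383 bases) had no listed level. The part of such reads in the Ccnb1 values was not tested. Ccnb2 (chromosome 9, 70407692 to 70421547), which acts with CDK1 at the Golgi, had 5.54, 3.80 and 2.39 FPKM in the controls and 22.8, 21.3 and 21.3 with metformin. Its log2 fold change was 2.26 ± 0.22 (SE, limma-trend adjusted p = 0.000807) with a ratio of 5.57, and its standard error was the largest of the 10.

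Both kinases rose. Cdk1 (chromosome 10, 69335146 to 69352938), the mitotic kinase, had 6.75, 6.22 and 4.54 FPKM in the controls and 24.1, 26.6 and 26.3 with metformin. The mean went from 5.84 ± 1.16 to 25.7 ± 1.36 (SD, n = 3), with a log2 fold change of 1.98 ± 0.14 (SE, limma-trend adjusted p = 0.000217) and a ratio of 4.40. Cdk2 (chromosome 10, 128697939 to 128705031), the partner of cyclins E and A, was steadier, with 5.16, 5.31 and 4.998 FPKM in the controls and 11.2, 11.4 and 11.2 with metformin. Its log2 fold change was 0.99 ± 0.07 (SE, limma-trend adjusted p = 0.000252), a ratio of 2.18. Pmel, which overlaps Cdk2 on the opposite strand, had a mean of 0.501 FPKM. The ratio of Cdk1 to Cdk2 FPKM was 1.31, 1.17 and 0.908 in the controls and 2.16, 2.35 and 2.35 with metformin, without overlap.

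Of the phosphatases, 2 rose and 1 did not pass the test. Cdc25c (chromosome 18, 34732997 to 34751533), which activates CDK1 at mitosis, had the lowest level of the 10 in the controls, with 1.33, 0.933 and 1.02 FPKM, and had 6.21, 7.23 and 7.78 with metformin. These rest on 38 to 47 reads per control and 239 to 306 with metformin, and the log2 fold change was 1.95 ± 0.12 (SE, limma-trend adjusted p = 0.000136) with a ratio of 6.46. Gm3550, which shares 623 identical bases with Cdc25c, had at most 0.243 FPKM. Cdc25b (chromosome 2, 131186949 to 131198497), which acts early in mitotic entry, had 5.42, 6.06 and 5.09 FPKM in the controls and 12.8, 13.0 and 12.2 with metformin, a log2 fold change of 1.07 ± 0.09 (SE, limma-trend adjusted p = 0.000370) and a ratio of 2.29. Spef1, which overlaps it on the opposite strand, had a mean of 2.17 FPKM. Cdc25a (chromosome 9, 109875579 to 109893895), which acts at entry into DNA synthesis as well as at mitosis, had 2.22, 2.26 and 2.28 FPKM in the controls and 2.64, 3.12 and 3.03 with metformin. Its groups did not overlap, but its log2 fold change was 0.27 ± 0.09 (SE, 95% interval 0.06 to 0.47, limma-trend adjusted p = 0.0671) and its ratio 1.30. Over the 14 alternatives its adjusted p-values ran from 0.0458 to 0.241. It passed in 2 of them, without control replicate 1 (0.26, limma-trend adjusted p = 0.0458) and with voom on the recovered reads (0.37, adjusted p = 0.0473). There 10 of 10 genes were called higher, where 23.4% and 14.0% of all tested genes were.

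**Figure D3:**
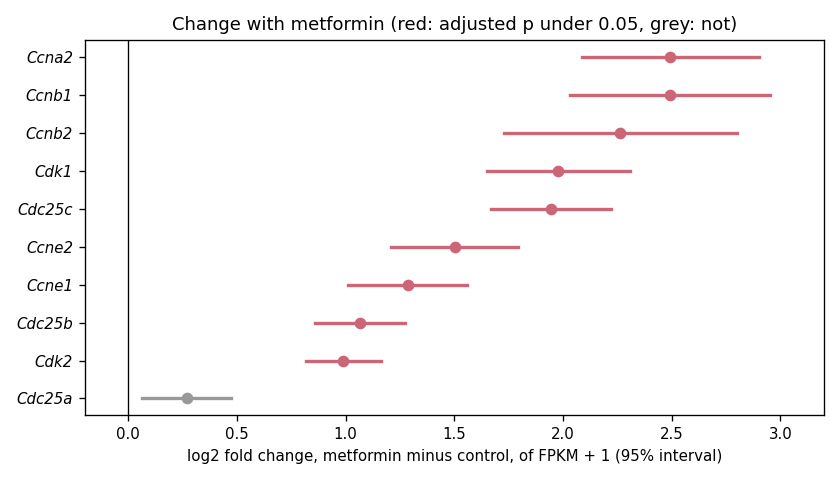
Log2 fold change of FPKM + 1 (metformin minus control) with its 95% interval for the 10 genes, red where the adjusted p-value was under 0.05. The values run from 0.27 for Cdc25a, in grey, to 2.49 for Ccna2 and Ccnb1.

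The order of the FPKM values was different in the groups. Order between genes rests on the listed lengths, whose definition is not known, so it need not be that of transcripts. With metformin Ccnb1 had 1589 to 1844 reads and Ccnb2 635 to 711, yet Ccnb2 had the higher mean FPKM. In the controls Ccne1, Cdk1, Cdc25b, Cdk2 and Ccna2 had means of 5.93 to 4.77 FPKM, and from Ccne1 down to Cdc25a the samples of each gene overlapped those of the next. Only Cdc25c, with a mean of 1.09, was separate from the gene above it. With metformin no gene overlapped its neighbour in the order, which ran Ccna2 (30.9), Cdk1 (25.7), Ccnb2 (21.8), Ccnb1 (19.5), Ccne1 (15.8), Cdc25b (12.7), Cdk2 (11.2), Ccne2 (9.24), Cdc25c (7.07) and Cdc25a (2.93 FPKM). The summed FPKM of the 10 genes was 46.1, 40.9 and 32.7 in the controls and 155.9, 157.8 and 156.7 with metformin.

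As for most tested genes, FPKM varied more among the controls than among the metformin samples for 9 of the 10 genes. The coefficient of variation of FPKM had a median over the 10 genes of 19.3% in the controls and 3.55% with metformin, where all tested genes had 17.1% and 5.47%. It was larger in the controls for 83.8% of all tested genes, so 9 of 10 is near the background. The exception was Cdc25a, with 1.36% in the controls and 8.69% with metformin. Control replicate 3 was the lowest control for 8 of the 10 genes and control replicate 1 the highest for 6. Control replicates 1 and 2 were each the lowest for 1 gene. Over all tested genes, replicates 1, 2 and 3 were the lowest control for 40.2%, 24.6% and 35.3%, and replicate 1 was the highest for 45.0%. Ccnb2 showed the widest range, from 2.39 FPKM in control replicate 3 to 5.54 in control replicate 1. Without control replicate 3 the log2 fold change of Ccnb2 was 2.02, and without control replicate 1 it was 2.50.

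Whether related genes changed unequally was tested in 7 pairs on the difference of their log2(FPKM + 1) within each sample, by an exact two-sided permutation test over the 6 samples. Such a test of 3 against 3 cannot give a p-value below 0.1, so no pair could pass. In 5 pairs the groups did not overlap and the exact permutation p was at that limit of 0.1 (adjusted 0.14 over the 7 pairs). The Cdc25 pairs among them share genes, and how often other pairs of genes would not overlap was not tested. The change of Cdk1 minus that of Cdk2 was 0.99 on the log2 scale (SE 0.14). The change of Cdc25a minus that of Cdc25b was -0.80 (SE 0.09), and minus that of Cdc25c it was -1.68 (SE 0.10). Cdc25b minus Cdc25c gave -0.88 (SE 0.16). Cdc25a had 1.67 to 2.43 times the FPKM of Cdc25c in the controls and 0.389 to 0.431 times with metformin. Which gene is higher in FPKM depends on the listed lengths, 8023 bases for Cdc25a and 1941 for Cdc25c, whose definition is not known. In reads Cdc25a was above Cdc25c in every metformin sample, with 420, 545 and 473 against 239, 306 and 294. Ccne1 and Ccne2 differed by -0.22 (SE 0.06), and their FPKM ratio was 2.04 to 2.38 in the controls and 1.65 to 1.79 with metformin. The groups overlapped for Ccnb1 and Ccnb2 (0.23, SE 0.13, exact permutation p = 0.2, adjusted 0.233) and for Ccna2 and Ccnb1 (0.0025, SE 0.12, exact permutation p = 1). Ccnb1 minus Ccnb2 was 0.13 without control replicate 2 and 0.33 without control replicate 3. With a pseudocount of 0.1 the difference was -0.38 for Ccne1 and Ccne2 and -1.41 for Cdc25b and Cdc25c.

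**Figure D4:**
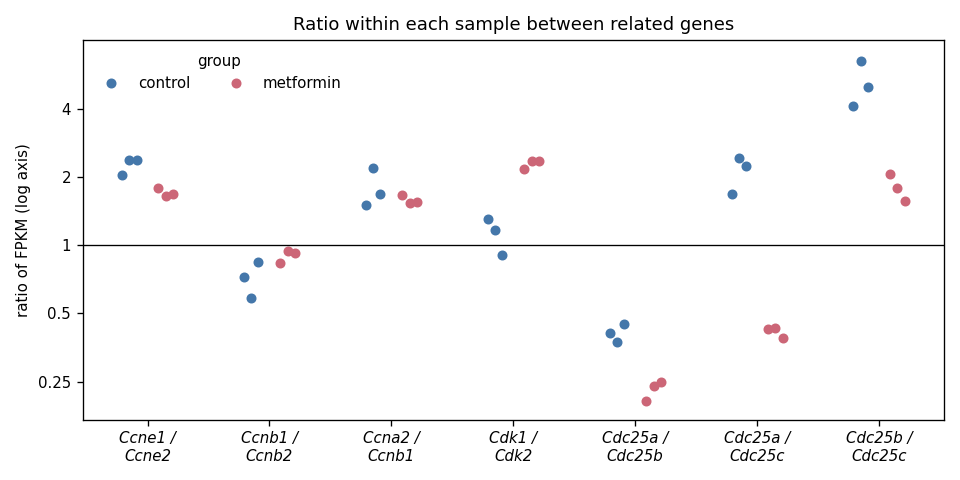
Ratio of FPKM between related genes in each control (blue) and metformin (red) sample, on a log axis with a line at 1. Cdk1 over Cdk2 moves up from about 1 to 2.16 and more, and Cdc25a over Cdc25c moves from above 1 to below it. The side of 1 on which a ratio lies depends on the listed gene lengths.

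The controls on CDK1 and CDK2 were examined in 41 genes listed by role, of which 38 were tested. Of these, 19 were higher, 1 was lower and 18 were not called, with a median log2 fold change of 0.52. Over all tested genes 13.2% were called higher and 9.28% lower, with a median of 0.0053. The lists were chosen with earlier results of these data known. Ccna1 and Ccnb3, the germ cell relatives of the cyclins, had no read in any sample, which allows up to 3 reads in each, and Cdkn1c, an inhibitor, was under the limit with 2 to 16 reads. The small subunits that bind the kinases both rose, Cks1b from 11.8 ± 2.72 to 37.4 ± 2.53 FPKM and Cks2 from 22.0 ± 3.55 to 53.9 ± 1.34 (SD, n = 3). Gm15452 is identical to Cks2 over 240 bases. Ccnf, an F-box cyclin, rose from 4.47 ± 0.82 to 17.2 ± 0.57 FPKM (SD, n = 3). Of the inhibitory kinases Pkmyt1 rose, from 1.22, 2.02 and 1.98 to 8.66, 7.99 and 9.41 FPKM, a log2 fold change of 1.83 (limma-trend adjusted p = 0.000296) and a ratio of 4.996. Pkmyt1 shares 235 identical bases with Paqr4 on the opposite strand, which had 8.06, 10.6 and 11.8 FPKM in the controls and 15.5, 16.4 and 16.9 with metformin, and the part of its reads in the Pkmyt1 values was not tested. Cdc20 overlaps Elovl1 on the opposite strand (mean 26.8 FPKM), Skp2 Lmbrd2 (4.47), Fzr1 Mfsd12 (5.95), Ccnh Rasa1 (10.8) and Lin37 Hspb6 (4.81). The part of their reads in the values of these genes was not tested. Wee1, which has the same target as Pkmyt1, had a log2 fold change of 0.25 (limma-trend adjusted p = 0.108). It passed without control replicate 3 (0.33).

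None of the 3 genes of the CDK-activating kinase was called higher. The share of all tested genes was 13.2% higher and 9.28% lower, so counts among so few genes do not set them apart. Cdk7 had a log2 fold change of -0.18 and Ccnh of 0.0008, neither called (Cdk7 was called lower with the GC correction, -0.23, adjusted p = 0.0393), and Mnat1 fell by 0.34 on the log2 scale (limma-trend adjusted p = 0.0302). Mnat1 went from 6.69, 6.83 and 7.08 FPKM to 5.18, 5.68 and 4.82. Its call held in 5 of the 14 alternatives and was lost without any 1 replicate other than control replicate 1, with adjusted p-values of 0.0116 to 0.214. The inhibitors were not called, with log2 fold changes of -0.30 for Cdkn1a (p21) and -0.25 for Cdkn1b (p27, adjusted p = 0.0540). Cdkn1b was called lower in 4 of the 14 alternatives, among them scaling by total reads (adjusted p = 0.0310) and the fit without control replicate 1 (adjusted p = 0.0131). Cdkn1a had 139 FPKM in control replicate 1 and 209 and 235 in the others, against 148 to 159 with metformin. Without control replicate 1 it fell by 0.52 on the log2 scale (limma-trend adjusted p = 0.00205, 0.00205 to 0.597 over the alternatives).

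Of the ubiquitin ligase parts that act on these proteins 3 of 6 rose, of the Greatwall and PLK1 genes 3 of 5. Of the checkpoint kinases 2 of 4 rose, and no gene of these lists was called lower. Of all tested genes 13.2% were called higher and 9.28% lower. Cdc20, the activator that marks cyclin B for destruction, rose from 5.29 ± 0.66 to 36.2 ± 1.75 FPKM (SD, n = 3), and Fbxo5, an inhibitor of that step, from 4.24 ± 0.71 to 19.3 ± 1.56. Skp2 rose by 0.53, while Fzr1 (0.52), Fbxw7 (0.02) and Btrc (-0.23) were not called. Fzr1 was called higher in 4 of the 14 alternatives, and without control replicate 1 its value was 0.34 (adjusted p = 0.00642). Btrc was called lower with voom (-0.31, adjusted p = 0.0462). Plk1, the kinase that switches on CDC25C, rose by 2.56, its activator Bora by 1.09 and the Greatwall kinase Mastl by 1.64 on the log2 scale. The ratio of the means was 6.77 for Plk1, 3.05 for Bora and 4.83 for Mastl. Ensa (-0.20) and Arpp19 (0.14), the targets of Greatwall, were not called, and Ensa was called lower with the GC correction (-0.28, adjusted p = 0.0161). The checkpoint kinases Chek1 (1.22) and Chek2 (1.07), which inhibit CDC25, rose, with ratios of 4.06 and 2.42, and Atm (0.27) and Atr (0.26) were not called. Without control replicate 1 both were called higher (Atm 0.44, adjusted p = 0.0304, and Atr 0.33, adjusted p = 0.0444), Atr also with voom (0.59, adjusted p = 0.0378), and without control replicate 2 Atm had 0.08.

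Of 13 genes for factors that drive or repress transcription of cyclins, 7 rose, where 13.2% of all tested genes were called higher. Foxm1 went from 4.35, 3.64 and 3.62 to 28.3, 29.0 and 26.6 FPKM, a log2 fold change of 2.58 ± 0.09 (SE, limma-trend adjusted p = 6.43e-05). Mybl2, which joins FOXM1 on such promoters, rose by 2.15, E2f1 by 1.18, E2f2 by 0.84, Lin9 by 0.84, Lin54 by 0.62 and Nfyc by 0.52. These values put low genes too low in the order: the ratio of the means was 8.03 for Mybl2 and 7.23 for Foxm1, and 3.46 for E2f2 and 2.74 for Lin9 against 2.36 for E2f1. With voom the log2 fold change was 1.78 for E2f2 and 1.51 for Lin9. The call of Nfyc was lost without any 1 of the metformin replicates (adjusted p = 0.0667 to 0.0816). Nfya (0.03) and Nfyb (0.31) of the same NF-Y factor, E2f3 (0.23), the repressor E2f4 (0.06), Lin37 (-0.40) and Lin52 (-0.31) were not called. Control replicate 1 bore on several of them: without it E2f4 turned to -0.17, E2f3 (0.31, adjusted p = 0.00879) was called higher, Lin37 (-0.56, adjusted p = 0.00709) was called lower, and Lin52 had -0.11. Without control replicate 3 Lin37 had -0.24. Lin37 was called lower in 3 of the 14 alternatives, and Nfyb was called higher in 3.

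**Figure D5:**
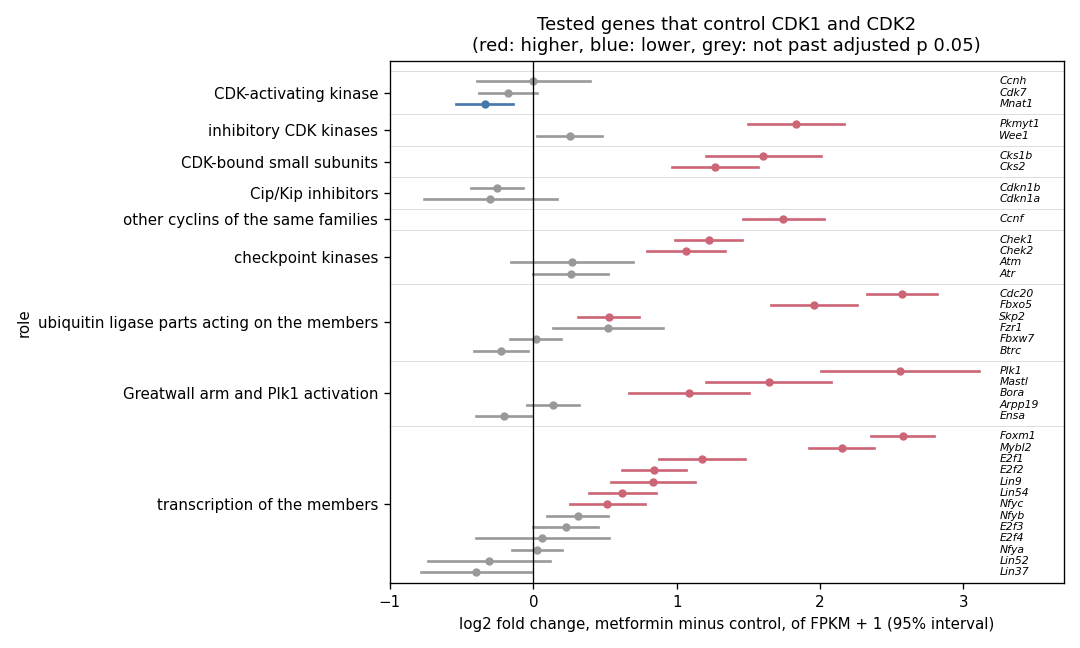
Log2 fold change of FPKM + 1 with its 95% interval for the 38 tested genes that control CDK1 and CDK2, by role, with higher genes in red, lower in blue and genes not called in grey. Foxm1, Cdc20 and Plk1 lie above 2.5, and the 3 genes of the CDK-activating kinase run from -0.34 to 0.0008.

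The genes whose levels were most like the mean of the 10 over the 6 samples were Kif14, Kpna2, Melk, Cenpa and Chek1, with Pearson correlations of 0.9996 to 0.9998, a description in which the difference between the groups sets most of the value. Of the 10, each of which is itself part of that mean, Ccna2 had the highest correlation with it (0.9994) and Cdc25a the lowest (0.915). The proliferation genes Mki67, Pcna and Top2a rose as well, Mki67 from 4.59 ± 0.75 to 29.5 ± 2.39 FPKM and Pcna, for the sliding clamp of DNA synthesis, from 47.7 ± 6.49 to 109 ± 3.66 (SD, n = 3).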

How the data were processed

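RNA of 6 samples of 1 cell line was sequenced from TruSeq libraries. The table deposited by the authors names no unit. Its values were identified as FPKM: the authors had divided the reads of each gene by its length and by a size of the library before deposit. Multiplied by the listed length, 100% of the values above 0 came to whole steps within 0.01 reads, and these steps gave the reads. The submitters' processing notes name Bowtie 0.12.2 and the builds mm8 and mm9 with no role, but of 54532 identifiers 53585 had the coordinates of GENCODE M21 (GRCm38). Definition of gene length and strand of counting were not given in the sources used here. The authors tested with DESeq2. The number of per-sample columns left unused was 0.

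The groups were compared in R 4.3.3 by limma-trend (limma 3.58.1) on log2(FPKM + 1), keeping genes whose mean reached 0.5 FPKM, at a threshold of 0.05 after Benjamini-Hochberg adjustment. The fit was tested on simulated counts with the same spread setting for all genes and both groups. In these data the controls varied more, so that check does not cover them. Other settings tried were 0.1 as the pseudocount, total reads for scaling, all genes with a read, at least 10 reads in every sample, voom on the recovered reads, the replicate number as a block, a correction for GC content (a spline with 5 degrees of freedom) and leaving out each replicate. The members, the lists of genes and the motifs were chosen with earlier results of these data known. Named are the members, the genes of the lists, 3 proliferation genes and the 5 genes most like the members. Near-identical copies were searched among GENCODE transcripts with BLAST+ 2.17.0, for 95% identity along 200 bases or more. Promoter sequences are from RefSeq (GRCm38.p6). Figures were drawn with matplotlib 3.10.9. Limits from reads cover counting error only.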

Additional observations from a re-analysis of the deposited data

How the results depend on the processing

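The members called higher were 9, and 10 with voom and without control replicate 1. Over the 14 alternatives 138 of 140 values of the members kept direction and side of the threshold, and none reversed. Of 532 values of the list genes 484 did so, 12 lost a call, 24 gained one and 12 reversed. The list genes called lower were 1. There were 2 after scaling by total reads, 2 in voom, 4 after the GC correction, 0 under the replicate block, 2 under the block and the GC correction together and 0 to 4 when each replicate was left out (4 without control replicate 1 and 0 without any other). All genes called higher were 1670, with 938 to 2969 when each replicate was left out (2969 without control replicate 1, and 938, 943 and 985 without metformin replicates 1, 2 and 3). All genes called lower were 1177, with 698 under the replicate block, 2433 with the GC correction, 1888 with both, and 495 to 2590 when each replicate was left out (2590 and 741 without control replicates 1 and 2, and 495, 518 and 533 without metformin replicates 1, 2 and 3). Deviations of same-numbered samples were not correlated (r of -0.053, 0.00027 and -0.055). With 3 samples a group this check cannot show whether the cultures were paired. The replicate block changed no call of the members.

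Signs turned for genes near 0: Ccnh to -0.024 with scaling by total reads, Fbxw7 to -0.0061 with that scaling and -0.059 with the GC correction, with or without the replicate block, and Nfya to -0.019 with the GC correction, with or without the block. Without one replicate, Ccnh ranged from -0.094 to 0.19, Fbxw7 from -0.0095 to 0.035 and E2f4 from -0.17 to 0.22. The pair Ccna2 and Ccnb1 went from 0.0025 to -0.14 with a pseudocount of 0.1, to -0.00054 with scaling by total reads and to between -0.069 and 0.12 without one replicate. The cause was not tested, except that the GC correction moved all genes by a median of -0.054 and the scaling by -0.025. With 3 samples a group, differences between members smaller than the spread of the controls cannot be shown.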
